A study of Mus musculus with 4 samples.

Results

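The genes described here are 34 genes of the stress response driven by the transcription factor ATF4 and of amino-acid synthesis and transport, taken as a named list from a table of 50559 mouse genes. They comprise 12 regulators of the response and proteins it induces, 6 enzymes of serine and one-carbon metabolism, 7 other enzymes of amino-acid metabolism and 9 amino-acid transporters. The list was drawn up around 1 measured value, the low read count of *Slc7a11* in the cells given wild-type YTHDF2, so that value is given as a description. The question was whether the other 33 genes share it. All 34 genes had a mean count of at least 10 reads over the libraries, a minimum met by 18586 genes of the table.

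The RNA came from E14 cells, a line of mouse embryonic stem cells (ESCs), in 4 groups of 1 library each, and was sequenced as poly(A)+ RNA. The control carried a scrambled hairpin and the empty vector (shScram+EV, titled shscr_EV in the labels). The other 3 groups carried a hairpin against *Ythdf2*, together with the empty vector (shYthdf2+EV), with wild-type YTHDF2 (shYthdf2+DF2WT, titled shYthdf2_WT) or with YTHDF2 mutated so that it does not bind N6-methyladenosine (shYthdf2+DF2Mut, titled shYtdhf2_Mut). YTHDF2 is a cytoplasmic protein that binds mRNA carrying N6-methyladenosine and promotes its decay. All lines grew on gelatin in serum replacement with leukemia inhibitory factor, non-essential amino acids and β-mercaptoethanol. The hairpins were delivered by lentivirus from a U6 promoter, and stable knockdown lines were obtained by puromycin selection. The study made these lines in ESCs with a tdTomato reporter under the promoter of the retroelement *MERVL*. It describes the wild-type and mutant YTHDF2 constructs as transfected into the knockdown cells. The labels do not say which hairpin against *Ythdf2* was used. No group had a replicate, so no test between conditions could be made, and a difference between conditions cannot be told apart from one between single libraries.

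Total counts were between 31533129 and 35742335 reads per library. The floor of 3 reads, the upper limit that a count of 0 allows when each read counts by itself, corresponded to between 0.0835 and 0.0949 CPM, the count scaled to library size. Counted in read pairs, as the intervals below are, that limit would be higher. Levels are given as reads and, where genes are compared with each other, as RPKM, which scales the reads by exon length and library size. Differences are log2 ratios of scaled counts. Each is followed by its 95% Clopper-Pearson interval in brackets, which covers counting error only and compares 2 libraries. Genes with a ratio of at least 2-fold in either direction were counted. *Ythdf2* itself had 2806 reads with shScram+EV, 662 with shYthdf2+EV, 7661 with shYthdf2+DF2WT and 6925 with shYthdf2+DF2Mut, so the targeted gene followed the labels. With the wild-type construct its level was 262% of the control's, a log2 ratio of 1.39 [1.30 to 1.48], so it lay above the control. The summed RPKM of 10 ESC markers was 3110 to 3937, and none was at 0. Every comparison shares a library with others, so the ratios below are not independent of one another.

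When amino acids are short or proteins misfold, kinases phosphorylate the initiation factor eIF2, which lowers general translation while the mRNA of ATF4 is translated more. ATF4, often with a C/EBP partner, then binds C/EBP-ATF response elements and switches on genes for making and importing amino acids, for charging tRNAs and for restraining the response itself. *Slc7a11* encodes xCT, the light chain of the cystine/glutamate exchanger, which pairs with the heavy chain 4F2hc encoded by *Slc3a2* and brings in cystine for the synthesis of glutathione. ESCs divide quickly and draw on the amino acids of the medium, and β-mercaptoethanol is known to let cultured cells take up cyst(e)ine by another route.

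*Slc7a11* (chr3:50319385-50403947 of mm39, on the minus strand) had 213 reads with shScram+EV, 309 with shYthdf2+EV, 13 with shYthdf2+DF2WT and 277 with shYthdf2+DF2Mut. The library with wild-type YTHDF2 stood alone at the bottom, above the floor of 3 reads, and the other 3 libraries lay close together. In RPKM the levels were 0.719, 0.916, 0.0421 and 0.928 in the same order. With wild-type YTHDF2 the level was 4.59% of the knockdown's and 5.86% of the control's. The log2 ratios were -4.39 [-5.68 to -3.26] to shYthdf2+EV and -4.04 [-5.34 to -2.90] to shScram+EV. The level was thus low against the control as well as against the knockdown. The mutant library was 4.41 [3.28 to 5.70] above the wild-type library and differed from shYthdf2+EV by 0.02 [-0.32 to 0.36]. The knockdown itself gave 0.35 [-0.02 to 0.72] against the scrambled control.

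Of 18586 genes, 10 had a lower ratio of shYthdf2+DF2WT to shYthdf2+EV than *Slc7a11*. In 3 genes the wild-type library lay further below every other library, and those genes (*Ms4a4d*, *Htr5a* and *Gm5773*) had 0 reads in it and at most 20 reads elsewhere. Among the 13995 genes whose mean count reached 50, *Slc7a11* had the widest such margin, 4.04 on the log2 scale, followed by the predicted gene *Gm6741* at 1.73. None of the nearest genes with enough reads on chromosome 3 had so wide a margin. They lay 722 to 906 kb from *Slc7a11* on one side and 982 to 8561 kb on the other, so closer sequence was not covered. Of these, *Gm31415* had 4 reads with shYthdf2+EV and 18 with shYthdf2+DF2WT, which gave the highest ratio. Over the 5 nearest genes with enough reads on each side (*D3Ertd751e*, *Pabpc4l*, *1700018B24Rik*, *Gm31415*, *Gm5846*, *Gm40044*, *Noct*, *Elf2*, *Mgarp* and *Gm9442*), the log2 ratio of shYthdf2+DF2WT to shYthdf2+EV ran from -0.47 to 2.15, with a median of -0.14.

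Markers of primitive endoderm were lower in shYthdf2+DF2WT than in shYthdf2+EV, while lists for other cell types were mixed or higher in that comparison. The 7 markers of primitive endoderm, an extraembryonic lineage that ESC cultures can form, had a summed RPKM of 3.21 with shScram+EV, 4.63 with shYthdf2+EV, 2.45 with shYthdf2+DF2WT and 4.605 with shYthdf2+DF2Mut. Of the 6 with enough reads, 5 were lowest in shYthdf2+DF2WT, beside 25.3% of all genes, and 0 by at least 1.5-fold, beside 2.31%. The ratios to shYthdf2+EV had a median of -0.86 and included -1.42 for *Dab2*, -1.24 for *Sox17* and -1.11 for *Gata6*. Against shScram+EV the median was -0.35, from -0.94 to 1.07, where *Slc7a11* was at -4.04. The interval there lay below 0 for 1 of the 6, beside 16.3% of all genes. *Foxa2* was at 0 in shScram+EV. The summed RPKM of 6 trophectoderm markers was 8.05 to 10.2. Their median log2 ratio of shYthdf2+DF2WT to shYthdf2+EV was 0.78, with *Elf5* at 2.78 [0.81 to 6.11], *Krt7* at 1.62 [0.69 to 2.67] and *Hand1* at 0.82 [0.14 to 1.51], and with the most abundant, *Eomes*, at -0.20. Of 8 fibroblast markers, *Dcn* and *Lum* were at 0 in every library, between 2 and 3 were at 0 in any one library, and the summed RPKM was 7.02 to 12.5. The fibroblast collagen gene *Col1a2* had 20 reads with shScram+EV, 32 with shYthdf2+EV, 2 with shYthdf2+DF2WT and 14 with shYthdf2+DF2Mut. The 5 fibroblast markers with enough reads had a median ratio of 0.21, from -3.58 for *Col1a2* and -0.58 for *Col1a1* to 0.21 for *Col6a3*, 0.23 for *Thy1* and 1.02 [0.77 to 1.28] for *Pdgfrb*. The part of these markers in the level of *Slc7a11* was not tested, and in bulk RNA fewer cells of a type cannot be told apart from less RNA per cell.

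**Figure D1:**
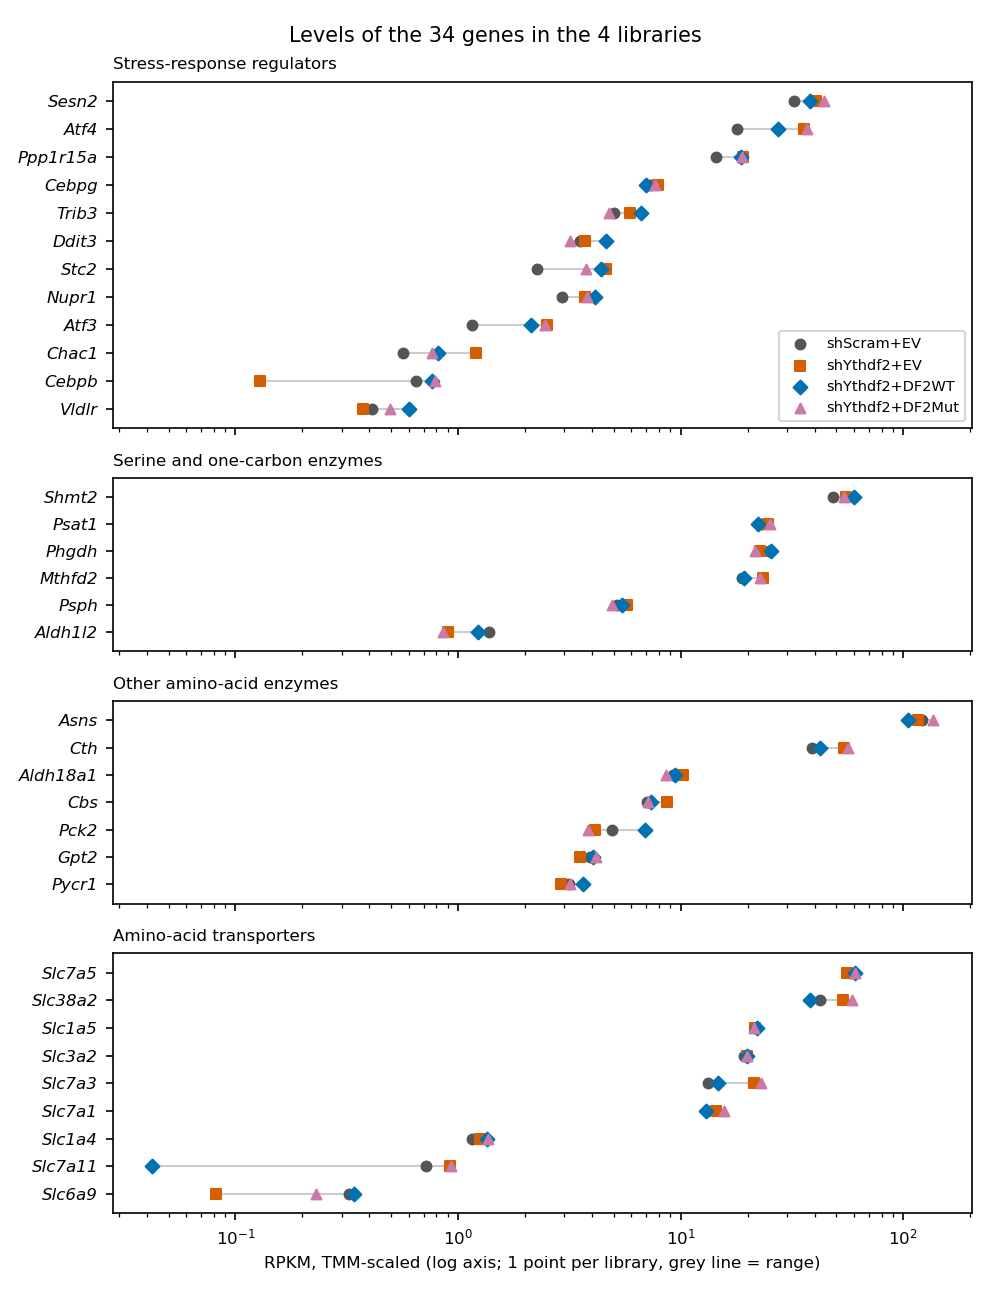
Level of each of the 34 genes in the 4 libraries, as RPKM on a log axis, with 1 point per library and a grey line over their range, grouped by role. *Slc7a11* is at 0.0421 RPKM in shYthdf2+DF2WT and between 0.719 and 0.928 in the other libraries, *Cebpb* and *Slc6a9* are lowest in shYthdf2+EV, and the points of most other genes lie close together.

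The promoters were read for the DNA element through which ATF4 acts, to ask whether genes that carry it moved with *Slc7a11*. Promoter sequences of RefSeq on GRCm38.p6, from 250 bases before to 50 bases after each start site, were found for 29 of the 34 genes. The core of the C/EBP-ATF response element was searched on both strands as TGATGNAA. It stood in the promoters of 10 of the 29 genes, or 34.5%, and in those of 4.51% of all 27025 genes with a promoter. The list was named for ATF4, so a share above that of all genes follows from how it was made. The 10 genes were *Slc7a11*, *Atf3*, *Chac1*, *Trib3*, *Asns*, *Vldlr*, *Nupr1*, *Slc1a4*, *Pck2* and *Pycr1*. *Slc7a11* held 2 matches, starting 66 and 47 bases before its start site and facing in opposite directions, and the other 9 genes held 1 each. The promoter of *Slc7a11* is shown because its level set the question, those of *Atf3* and *Chac1* because both genes were higher in the knockdown, and that of *Asns* because it was the most abundant of the 34 genes. Each line gives the 250 bases before the start site, 5′ to 3′ on the gene's strand, with the matches in capitals: chr3:50443614-50443863 (minus) for *Slc7a11*, chr1:191183334-191183583 (minus) for *Atf3*, chr2:119350992-119351241 (plus) for *Chac1* and chr6:7693210-7693459 (minus) for *Asns*.
Slc7a11: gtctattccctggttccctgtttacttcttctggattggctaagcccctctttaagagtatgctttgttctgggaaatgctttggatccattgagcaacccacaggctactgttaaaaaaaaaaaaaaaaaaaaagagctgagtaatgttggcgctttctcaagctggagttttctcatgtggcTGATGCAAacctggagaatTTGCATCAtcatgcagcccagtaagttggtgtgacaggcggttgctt
Atf3: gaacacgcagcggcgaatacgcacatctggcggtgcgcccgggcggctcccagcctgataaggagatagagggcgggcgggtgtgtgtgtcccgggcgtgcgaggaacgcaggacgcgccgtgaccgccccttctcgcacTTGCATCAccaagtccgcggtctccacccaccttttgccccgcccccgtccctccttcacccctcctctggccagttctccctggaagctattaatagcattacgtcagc
Chac1: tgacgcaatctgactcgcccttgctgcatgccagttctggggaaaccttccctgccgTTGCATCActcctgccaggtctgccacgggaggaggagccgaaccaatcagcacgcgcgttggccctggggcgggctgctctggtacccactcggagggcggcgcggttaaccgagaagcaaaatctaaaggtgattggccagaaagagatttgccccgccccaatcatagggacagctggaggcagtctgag
Asns: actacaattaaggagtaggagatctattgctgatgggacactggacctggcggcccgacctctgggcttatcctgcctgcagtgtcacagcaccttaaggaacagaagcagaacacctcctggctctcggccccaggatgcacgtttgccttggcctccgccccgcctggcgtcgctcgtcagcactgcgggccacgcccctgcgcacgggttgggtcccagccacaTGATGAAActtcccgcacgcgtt
In shYthdf2+EV against shScram+EV the median log2 ratio was 0.19 over the 10 genes with the element and 0.14 over the 19 without it. In the same order the medians were 0.45 and 0.07 in shYthdf2+DF2WT against shScram+EV. They were 0.03 and -0.02 in shYthdf2+DF2Mut against shYthdf2+EV, and -0.10 and 0.0047 in shYthdf2+DF2Mut against shYthdf2+DF2WT. In shYthdf2+DF2WT against shYthdf2+EV the medians were 0.12 and -0.08. The genes with the element ran from -4.39 to 0.75 in that comparison, with *Slc7a11* at one end and *Pck2* at the other. The antioxidant response element bound by NRF2, searched on both strands as TGACNNNGC, stood in the promoters of 10 of the 29 genes and of 13.99% of all genes, and the *Slc7a11* window held no match to these letters. *Asns* alone of the 29 held both, and its matches did not overlap.

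The first comparison asked what wild-type YTHDF2 did to the genes in knockdown cells. In shYthdf2+DF2WT against shYthdf2+EV, *Slc7a11* was the 1 gene of 34 lower by at least 2-fold, where 5.58% of all genes were, and *Cebpb* and *Slc6a9* were the 2 genes higher by at least 2-fold, where 5.15% of all genes were. The median log2 ratio was -0.05 over the 34 genes, -0.03 over the 33 without *Slc7a11* and 0.0028 over all genes. The counting interval lay above 0 for 10 genes and below 0 for 11, beside 21.1% and 21.5% of all genes. Low levels with wild-type YTHDF2 were also counted over the 4 libraries. That library was the lowest of the 4 for 6 of 34 genes, *Slc7a11*, *Asns*, *Psat1*, *Slc7a1*, *Cebpg* and *Slc38a2*, beside 25.3% of all genes. It was the lowest by at least 1.5-fold for *Slc7a11* and for 0 of the other 33 genes, where 2.31% of all genes were, and *Slc7a11* also passed a margin of 2-fold, as 0.958% of all genes did.

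**Figure D2:**
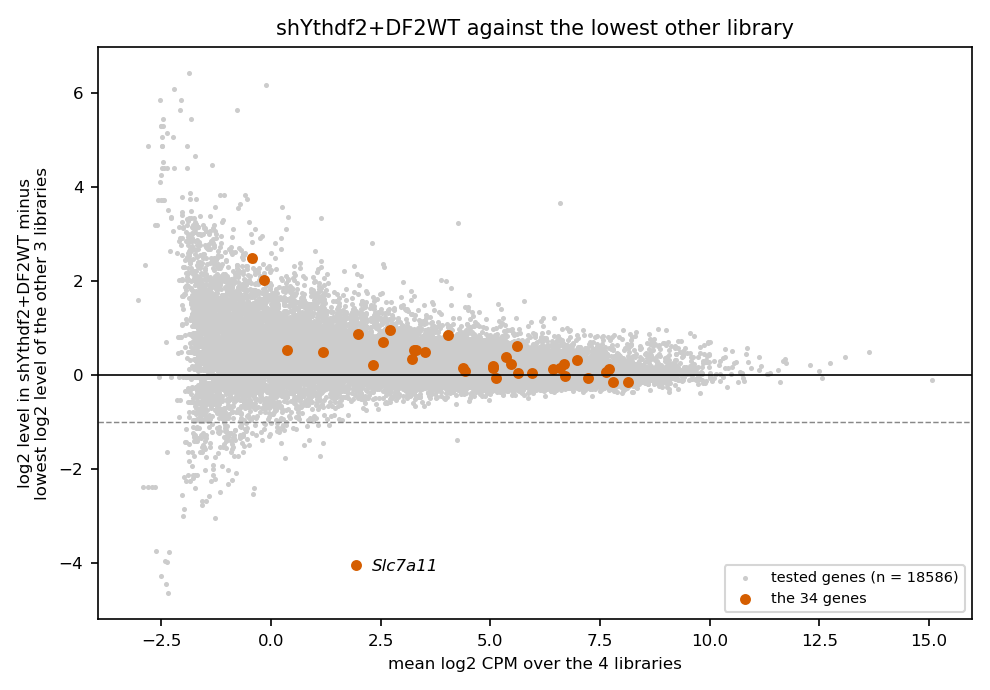
Log2 level in shYthdf2+DF2WT minus the lowest log2 level among the other 3 libraries, against the mean log2 CPM, for 18586 genes (grey) and the 34 genes (orange), with the dashed line at 2-fold. *Slc7a11* lies at -4.04, and the other 33 genes lie above the dashed line.

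Among the transporters, the partner chain of xCT did not follow it. *Slc3a2*, the heavy chain shared by several exchangers, had 6059 reads with shScram+EV, 7152 with shYthdf2+EV, 6559 with shYthdf2+DF2WT and 6340 with shYthdf2+DF2Mut. Relative to library size these levels were nearly the same in every library, and the log2 ratio of shYthdf2+DF2WT to shYthdf2+EV was 0.0023 [-0.07 to 0.07]. *Slc7a5*, the light chain LAT1 that imports large neutral amino acids with the same heavy chain, had 6412, 7038, 7059 and 6807 reads in that order of libraries, with a ratio of 0.13 [0.06 to 0.20]. *Slc1a5*, a glutamine transporter, and *Slc1a4*, a carrier of alanine, serine and cysteine, had ratios of 0.02 [-0.11 to 0.14] and 0.09 [-0.35 to 0.54].

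*Slc7a3*, *Slc38a2* and *Slc7a1* were also lower with wild-type YTHDF2 than in the knockdown, by far less than *Slc7a11*. *Slc7a3*, the cationic carrier CAT3, had 2311 reads with shScram+EV, 4213 with shYthdf2+EV, 2664 with shYthdf2+DF2WT and 4017 with shYthdf2+DF2Mut. The scrambled control and the wild-type library were low, and the knockdown and mutant libraries were high. Its log2 ratio was 0.68 [0.58 to 0.78] for the knockdown against the control, -0.53 [-0.63 to -0.43] for wild-type YTHDF2 against the knockdown and 0.64 [0.54 to 0.74] for the mutant against the wild type. *Slc38a2*, the sodium-coupled carrier SNAT2, had 6225, 8954, 5857 and 8708 reads in the same order. It had the same ordering of libraries into a low and a high pair, with 0.34 [0.27 to 0.40], -0.48 [-0.55 to -0.42] and 0.62 [0.55 to 0.69] for these 3 comparisons. *Slc7a1*, the cationic carrier CAT1, had 3080, 3814, 3153 and 3696 reads, with 0.12 [0.02 to 0.22], -0.15 [-0.24 to -0.05] and 0.28 [0.18 to 0.38]. These genes differ from *Slc7a11*, for which the wild-type library lay far below the control. *Slc38a2* was below the control by 0.15 on the log2 scale (-0.15 [-0.22 to -0.07]), *Slc7a1* by -0.03 [-0.13 to 0.08], and *Slc7a3* was above it by 0.15 [0.03 to 0.26].

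*Slc6a9*, the glycine transporter GLYT1, went the other way on few reads. It had 42 reads with shScram+EV, 12 with shYthdf2+EV, 46 with shYthdf2+DF2WT and 30 with shYthdf2+DF2Mut, so the knockdown with empty vector was the low library and the other 3 had 30 to 46. The log2 ratio was -1.95 [-3.59 to -0.64] for the knockdown against the control, 2.02 [0.73 to 3.65] for wild-type YTHDF2 against the knockdown and 1.46 [0.05 to 3.15] for the mutant against the knockdown. The mutant against the wild type was -0.56 [-1.61 to 0.43], with an interval that held 0.

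**Figure D3:**
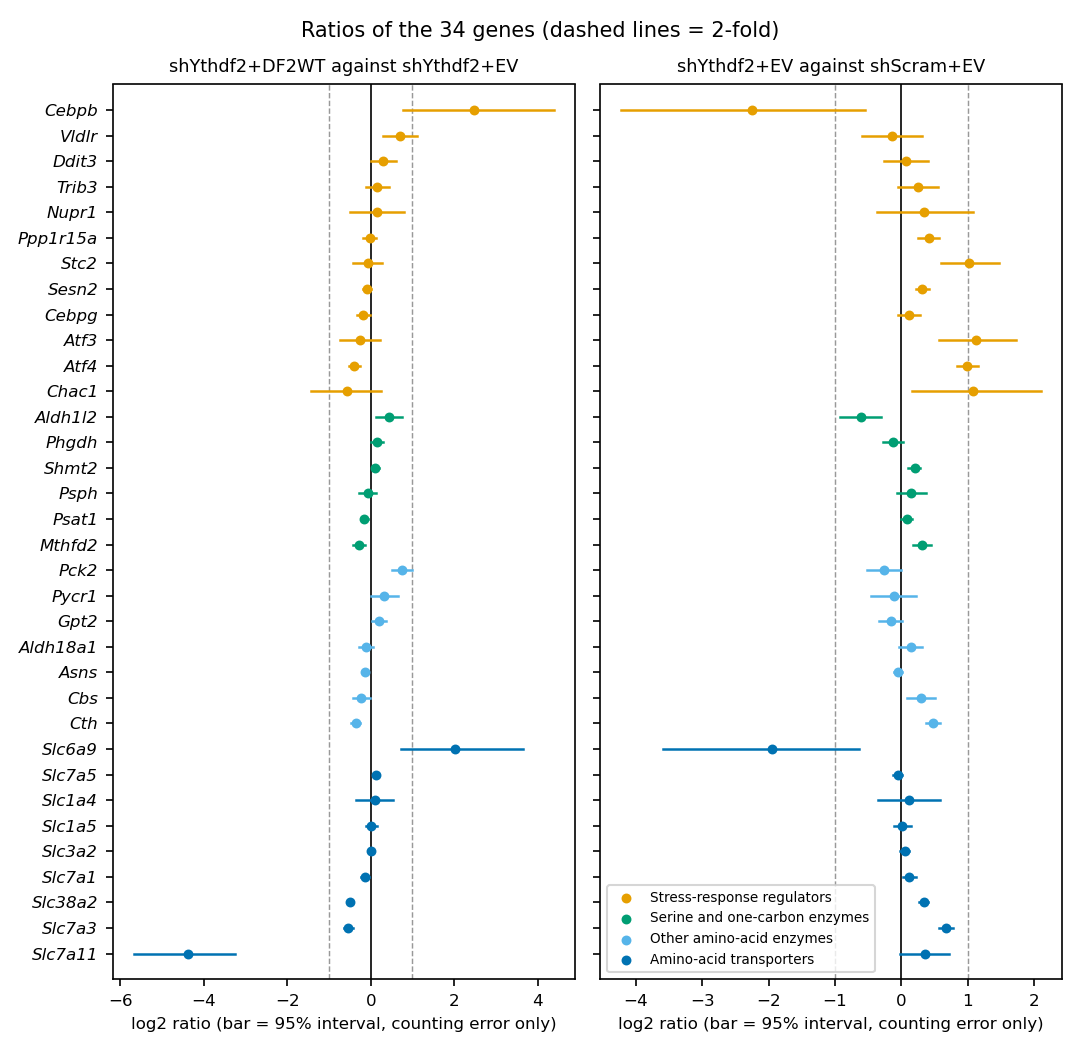
Log2 ratio of each of the 34 genes in shYthdf2+DF2WT against shYthdf2+EV (left) and in shYthdf2+EV against shScram+EV (right), with bars for the 95% interval of counting error and dashed lines at 2-fold. On the left *Slc7a11* lies at -4.39, with *Cebpb* at 2.48 and *Slc6a9* at 2.02 on the other side. On the right *Atf3*, *Chac1*, *Stc2* and *Atf4* lie near or past the upper line.

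The second comparison asked what the *Ythdf2* hairpin did to the genes. In shYthdf2+EV against shScram+EV, 3 genes were higher by at least 2-fold (*Atf3*, *Chac1* and *Stc2*) and 2 were lower (*Cebpb* and *Slc6a9*), beside 7.1% and 5.7% of all genes, shares that would come to about as many genes. Smaller differences were mostly upward. The counting interval lay above 0 for 14 genes and below 0 for 4, beside 23.1% and 22.9% of all genes. The median log2 ratio was 0.13, against -0.0016 over all genes, but -0.05 over the 7 other amino-acid enzymes. Genes outside the list that ATF4 also induces were not mostly higher. Over 20 aminoacyl-tRNA synthetase genes the median was -0.075, with 3 intervals above 0 and 10 below. Over 12 further ATF4 targets it was -0.031, with 5 above and 6 below. The control library was the lowest of the 4 for 14 genes, where it was for 25% of all genes, and the highest for 1 gene, *Aldh1l2*, where it was for 25.7% of all genes. Mitochondrially encoded genes took 8.44% of the reads in shScram+EV and 6.14% to 6.75% in the other libraries, and the part of that gap in these ratios was not tested beyond leaving those genes out, which kept the counts past 2-fold.

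The transcription factors and inducible regulators had a median of 0.33 in that comparison over 12 genes, 6 of which had an interval above 0. *Atf4* had 979 reads with shScram+EV, 2221 with shYthdf2+EV, 1553 with shYthdf2+DF2WT and 2026 with shYthdf2+DF2Mut. The control was the low library, the knockdown and mutant libraries were the high ones, and the wild-type library lay between them. The knockdown stood at 199% of the control, a log2 ratio of 0.995 [0.84 to 1.15], just under the 2-fold line, and it passed the line at 1.04 when libraries were scaled by total counts. Wild-type YTHDF2 was lower than the knockdown by -0.39 [-0.52 to -0.26] and higher than the control by 0.61 [0.44 to 0.77], and the mutant differed from the knockdown by 0.04 [-0.08 to 0.17].

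*Atf3*, a stress-induced factor of the same family, had 72 reads with shScram+EV, 179 with shYthdf2+EV, 138 with shYthdf2+DF2WT and 155 with shYthdf2+DF2Mut, with the control alone at the bottom. Its log2 ratio was 1.12 [0.56 to 1.74] in the knockdown against the control and -0.25 [-0.73 to 0.21] with wild-type YTHDF2 against the knockdown. *Stc2*, a secreted glycoprotein induced by ATF4, had 128, 297, 258 and 215 reads in the same order, again lowest in the control. It was higher by 1.03 [0.60 to 1.48] in the knockdown, just inside the 2-fold line, and by 0.95 [0.51 to 1.41] in the wild-type library against the control. *Chac1*, which degrades glutathione, had 28, 68, 42 and 38 reads, with a ratio of 1.08 [0.16 to 2.11] in the knockdown that came to 0.98 with a prior count of 5. For these 3 genes the interval of wild-type YTHDF2 against the knockdown held 0. *Ppp1r15a*, the GADD34 subunit that dephosphorylates eIF2, had 1060, 1604, 1441 and 1397 reads, and *Sesn2*, a leucine-responsive inhibitor of mTORC1, had 2723, 3863, 3335 and 3734. They were 0.41 [0.25 to 0.57] and 0.32 [0.22 to 0.42] above the control in the knockdown, and both were lowest in the control library.

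Of the other regulators, *Nupr1* was also lowest in the control, and the rest were not. *Ddit3*, the factor CHOP, had 285 reads with shScram+EV, 341 with shYthdf2+EV, 385 with shYthdf2+DF2WT and 258 with shYthdf2+DF2Mut. *Trib3*, a pseudokinase that restrains ATF4 and CHOP, had 324, 439, 448 and 311 reads in that order. For both genes the wild-type library was the highest and the mutant library the lowest, and the mutant against the wild type gave -0.53 [-0.86 to -0.20] and -0.48 [-0.78 to -0.17]. In the knockdown against the control they had 0.07 [-0.26 to 0.40] and 0.25 [-0.04 to 0.56]. *Nupr1*, a small stress-induced chromatin protein, had 58, 84, 85 and 76 reads, and its interval held 0 in every comparison. *Vldlr*, a lipoprotein receptor that ATF4 can induce, had 165, 171, 253 and 200 reads and was 0.69 [0.28 to 1.10] higher with wild-type YTHDF2 than in the knockdown. *Cebpg*, a heterodimer partner of ATF4, had 1085, 1336, 1085 and 1151 reads and ratios between -0.17 and 0.14.

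*Cebpb*, another partner of ATF4, had 31 reads with shScram+EV, 7 with shYthdf2+EV, 38 with shYthdf2+DF2WT and 38 with shYthdf2+DF2Mut. The knockdown with empty vector was the low library, and the other 3 were alike on these few reads. Its log2 ratio was -2.25 [-4.23 to -0.55] in the knockdown against the control, 2.48 [0.79 to 4.39] with wild-type YTHDF2 against the knockdown and 2.53 [0.84 to 4.44] with the mutant against the knockdown. *Cebpb* and *Slc6a9* were thus low in 1 library, and each counts in 3 comparisons through it.

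Apart from *Aldh1l2*, the serine and one-carbon enzymes differed little between libraries. *Phgdh*, *Psat1* and *Psph*, the enzymes that make serine from a glycolytic intermediate, had 1284 to 1563, 4561 to 5526 and 611 to 810 reads. *Shmt2*, which moves a one-carbon unit from serine in mitochondria, had 3529 reads with shScram+EV, 4608 with shYthdf2+EV, 4565 with shYthdf2+DF2WT and 3989 with shYthdf2+DF2Mut. For none of these 4 genes was a ratio beyond 0.31 in either direction. *Mthfd2*, the mitochondrial folate enzyme, had 1411, 1995, 1502 and 1709 reads, and was 0.31 [0.17 to 0.45] higher in the knockdown than in the control and -0.28 [-0.42 to -0.15] lower with wild-type YTHDF2 than in the knockdown. *Aldh1l2*, the mitochondrial formyl-folate dehydrogenase, had 403, 300, 372 and 250 reads. It ran opposite to *Mthfd2*, with -0.61 [-0.93 to -0.30] and 0.44 [0.12 to 0.76] for these comparisons.

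Among the other enzymes, *Cth*, which makes cysteine from cystathionine and so offers a supply besides xCT, had 2229 reads with shScram+EV, 3536 with shYthdf2+EV, 2524 with shYthdf2+DF2WT and 3287 with shYthdf2+DF2Mut. The knockdown and mutant libraries were high and the other 2 were low, with 0.48 [0.37 to 0.59] in the knockdown and -0.36 [-0.46 to -0.25] with wild-type YTHDF2. *Cbs*, the enzyme one step earlier, had 629, 882, 689 and 639 reads, and its mutant library did not stand with the knockdown (-0.29 [-0.50 to -0.08]). *Asns*, the asparagine synthetase, was the most abundant of the 34 genes at 106 to 136 RPKM. It had 9058, 9924, 8226 and 10241 reads, was 0.14 lower with wild-type YTHDF2 (-0.14 [-0.20 to -0.08]) and 0.37 [0.31 to 0.43] higher in the mutant than in the wild-type library. *Pck2*, the mitochondrial phosphoenolpyruvate carboxykinase, had 529, 503, 773 and 415 reads. The wild-type library was the highest, by 0.75 [0.51 to 0.98] over the knockdown, and the mutant stood at -0.85 [-1.10 to -0.60] against it. *Gpt2*, an alanine transaminase, and the proline-synthesis enzymes *Pycr1* and *Aldh18a1* had 1057 to 1128, 285 to 345 and 965 to 1298 reads, and none had a ratio beyond 0.33 in either direction.

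The mutant construct was compared with the knockdown and with the wild type to ask which differences depend on binding to N6-methyladenosine. In shYthdf2+DF2Mut against shYthdf2+EV, 2 genes were higher by at least 2-fold, *Cebpb* and *Slc6a9*, and 0 were lower, beside 2.65% and 3.38% of all genes, and the median was 0.01. The interval lay above 0 for 9 genes and below 0 for 4, beside 14.7% and 12.8% of all genes. In shYthdf2+DF2Mut against shYthdf2+DF2WT, *Slc7a11* was the 1 gene higher by at least 2-fold and 0 were lower, beside 5.4% and 6.21% of all genes, with a median of -0.0013. There the interval lay above 0 for 10 genes and below 0 for 6, beside 23.9% and 23.6% of all genes. Without *Slc7a11* the ratios of the other 33 genes in that comparison ran from -0.85 for *Pck2* to 0.64 for *Slc7a3*. In shYthdf2+DF2WT against shScram+EV, 0 genes were higher and *Slc7a11* was the 1 gene lower by at least 2-fold, beside 3.82% and 3.07% of all genes, and the interval lay above 0 for 13 genes and below 0 for 3, beside 15.8% and 16.3%. *Stc2* and *Atf3* lay just under that line on the upper side, at 0.95 and 0.88. Over the 4 libraries 22 of the 34 genes spanned less than 1.5-fold, as 54.7% of all genes did, and 7 spanned 2-fold or more, as 24.2% did.

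Base composition moved with the ratios, most of all with those that involve the wild-type library. Across the 16726 genes with a known GC content, the Spearman correlation between GC content and log2 ratio was 0.34 for shYthdf2+DF2WT against shYthdf2+EV, 0.35 against shScram+EV and -0.39 for the mutant against the wild type, a description over genes of the same libraries. It was -0.16 for the mutant against the knockdown and -0.064 for the knockdown against the control. The transcript of *Slc7a11* had 40.7% GC, and the median over the 34 genes was 51.2%, against 49.9% over all. With a correction for GC content and exon length, 5 of the 34 genes changed sign in shYthdf2+DF2WT against shYthdf2+EV (*Trib3*, *Shmt2*, *Slc7a5*, *Slc3a2* and *Slc1a5*), each with a ratio of at most 0.16 to begin with and 2 of them with an interval without 0, and 0 changed sign in the knockdown against the control. The sign changed for 9 genes in the mutant against the wild type (initial ratios up to 0.23, 2 of them with an interval without 0), for 8 in the mutant against the knockdown (up to 0.079, *Slc7a11* among them) and for 7 in the wild type against the control (up to 0.23, 1 of them with an interval without 0). With the correction *Slc7a11* was at -4.20 in shYthdf2+DF2WT against shYthdf2+EV.

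Related gene lists were read the same way, beside the 5.15% of all genes higher and 5.58% lower by at least 2-fold in shYthdf2+DF2WT against shYthdf2+EV. Of 20 aminoacyl-tRNA synthetase genes, which ATF4 also induces, 0 passed 2-fold in shYthdf2+DF2WT against shYthdf2+EV, and the median was 0.02, from -0.45 for *Cars* to 0.41 for *Vars*. The median was -0.02 over 14 genes for the eIF2 kinases and initiation factors, from -0.31 for *Eif2ak2* to 0.35 for *Eif2b5*, and 0.0063 over 19 genes for chaperones and sensors of the endoplasmic reticulum, from -0.33 for *Dnajb9* to 0.47 for *Pdia6*. In each of these lists too 0 genes passed 2-fold. Among 23 genes of the NRF2 response and of glutathione synthesis, to which *Slc7a11* also belongs by function, the median was 0.09 and 0 passed 2-fold, from -0.26 for *Srxn1* to 0.90 for *Osgin1*. The glutathione-synthesis gene *Gclc* had 2191 reads with shScram+EV, 2348 with shYthdf2+EV, 2090 with shYthdf2+DF2WT and 2279 with shYthdf2+DF2Mut, with a ratio of -0.04 [-0.16 to 0.08].

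Of 13 further ATF4 targets, 12 had enough reads, and their median in that comparison was 0.13. *Vegfa*, an angiogenic growth factor, was the 1 gene past 2-fold. It had 1889 reads in the control, 1168 in the knockdown, 2469 with the wild type and 1117 with the mutant, giving 1.21 [1.06 to 1.35] for wild-type YTHDF2 against the knockdown and -1.09 [-1.24 to -0.95] for the mutant against the wild type. Of the 12 other members of the SLC7 and SLC3 families, 7 had enough reads, and their median was -0.52. *Slc7a15* had 30, 37, 13 and 27 reads in the same order and was the 1 gene lower by at least 2-fold, at -1.35 [-2.81 to -0.00060]. In the other comparisons *Slc7a14*, with 6, 27, 15 and 16 reads, was 1.90 [0.20 to 4.48] higher in the knockdown than in the control, and *Slc7a8*, with 70, 51, 37 and 82 reads, was 1.19 [0.34 to 2.03] higher in the mutant than in the wild type. These lists were chosen with results of the same libraries known, so the medians are descriptions.

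**Figure D4:**
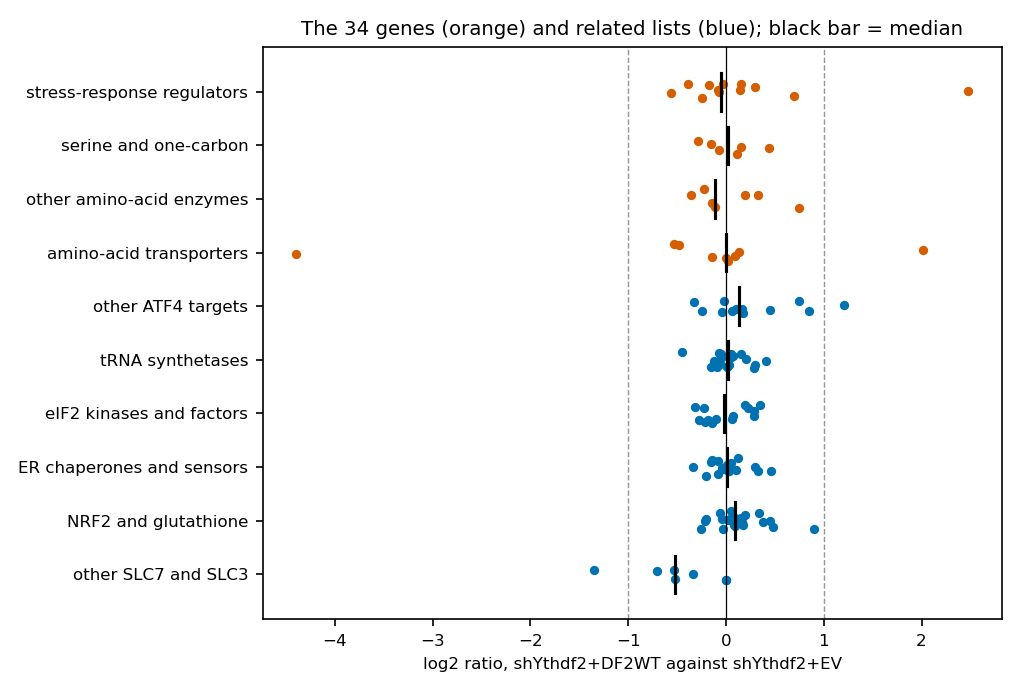
Log2 ratio in shYthdf2+DF2WT against shYthdf2+EV for each gene (points) of the 4 groups of the 34 genes (orange) and of related lists (blue), with the median as a black bar and dashed lines at 2-fold. The medians lie between -0.12 and 0.13 except for the other SLC7 and SLC3 genes at -0.52, and *Slc7a11* is the point at -4.39.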

How the data were processed

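The authors deposited 1 table of read counts per gene for 4 poly(A)+ RNA-seq libraries of E14 mouse ESCs, 1 per group, sequenced in pairs from stranded cDNA on an Illumina NovaSeq. Per the file headers, reads were counted with featureCounts 2.0.3 at exons of the UCSC mm39 RefSeq annotation, without regard to strand, with reads rather than pairs counted and multi-mapping reads left out, so genes that overlap another on either strand are uncertain. The submitters' processing notes name fastp 0.19.4, HISAT2 2.2.1, DESeq2 1.40.2 and the build mm10, which differs from the header. The coordinates of genes are those of the deposited table. The study's methods describe replicates, but the labels give 1 library per group. The number of sample columns left unused was 0.

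For this work, edgeR 4.0.16 (R 4.3.3) gave TMM factors over the genes whose mean count reached 10, and log2 ratios were taken after adding a prior count of 0.5 in proportion to library size. The study's 2-fold threshold was kept. Its DESeq2 test needs replicates, so no p-value was computed. Intervals are 95% Clopper-Pearson intervals on read pairs, taken as reads divided by 2. Amplified reads are not independent molecules, so intervals and the floor of 3 reads cover counting error only. RPKM used the exon lengths of the table. GC content came from the GENCODE vM21 transcripts (mm10) by symbol, for 90.0% of the genes with enough reads, and promoters from RefSeq on GRCm38.p6. The computation was checked on simulated counts.

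The named genes were the 34 genes, *Ythdf2*, the genes of each related list past 2-fold with an interval without 0 (where a list had none, its highest and lowest gene with wild-type YTHDF2 against the knockdown) and the nearest neighbours of *Slc7a11*. The genes with a wider or the next widest margin, *Gclc* and the markers quoted were named after their values were seen. The members and all lists were chosen with earlier results of these data known. The alternatives tried were scaling by total counts, by upper quartiles, by the size factors of DESeq2 1.42.0 or without mitochondrial genes, a prior count of 5, other minimum counts, a 1.5-fold threshold, a required interval without 0, log2 of RPKM plus 0.01, and a correction for GC content and length.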

Additional observations from a re-analysis of the deposited data

How the results depend on the processing

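Over the alternatives, the log2 ratio of *Slc7a11* in shYthdf2+DF2WT stayed between -4.40 and -4.00 against shYthdf2+EV and between -4.05 and -3.66 against shScram+EV, and that in shYthdf2+DF2Mut against shYthdf2+DF2WT between 4.02 and 4.42. The lowest sizes came with a prior count of 5. *Slc7a11* was the single gene of the 34 lowest with wild-type YTHDF2 by at least the fold under each of the 12 alternatives run for that count. With a threshold of 1.5-fold, the genes past it were 5 in shYthdf2+DF2WT against shYthdf2+EV, 8 in shYthdf2+EV against shScram+EV, 4 in shYthdf2+DF2Mut against shYthdf2+DF2WT and 4 in shYthdf2+DF2WT against shScram+EV, where 23.3%, 26.7%, 27.1% and 16.4% of all genes were past it. With a mean count of at least 50, which leaves out *Cebpb*, *Slc6a9* and *Chac1*, the genes past 2-fold were 1 in shYthdf2+DF2WT against shYthdf2+EV, 2 in shYthdf2+EV against shScram+EV and 0 in shYthdf2+DF2Mut against shYthdf2+EV. The other alternatives kept these counts within 1.5 times, and 0 ratios past 2-fold changed sign, while several smaller ratios did. The call of *Atf4* in the knockdown differed with total counts and that of *Chac1* with a prior count of 5. The median of shYthdf2+DF2Mut against shYthdf2+DF2WT ran from -0.030 to 0.084 and changed sign in 3 alternatives, and 26 of 1635 values of single genes moved beyond their counting interval, with the GC and length correction. No paired analysis was possible because each group had 1 library, and leaving out a library would leave a group empty. Depth limits the genes with few reads: the interval of *Cebpb* with wild-type YTHDF2 against the knockdown ran from 0.79 to 4.39. None of these alternatives stands in for a replicate.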
